A study of Rattus norvegicus with 48 samples.

Results

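miR-140 and miR-455 are the microRNAs best known from cartilage, and the 4 mature arms cut from their hairpins (miR-140-3p, miR-140-5p, miR-455-3p and miR-455-5p) were followed here in the blood plasma of rats during the healing of a skull bone defect. The arms were chosen by name, as 4 of the 645 mature miRNAs counted, with earlier results of these data known, and all 4 had reads in every one of the 48 samples. The paper lists all 4 among the miRNAs lower than baseline at weeks 1, 4 and 8. The background shares below are therefore descriptions and no independent test of the arms. The samples came from 12 male rats, which the methods describe as Sprague-Dawley animals aged 12 weeks at surgery, with a standardized defect drilled into the calvaria, the flat bone of the skull roof. All rats carried the defect, which was left empty or filled with a collagen-hydroxyapatite (CHA) scaffold, alone, loaded with a plasmid for BMP2 and miR-590-5p, or loaded with extracellular vesicles of mesenchymal stromal cells, and the treatment of each rat was not used here. The 6 strong and the 6 weak regenerators had been selected by bone volume in microCT, and tail vein blood was taken ahead of the operation (baseline, week 0) and again 1, 4 and 8 weeks after it. By the paper, the scaffold alone occurred only among the strong regenerators, and the plasmid scaffold more often among the weak ones. After surgery, differences between the groups can therefore not be fully told apart from differences in treatment. No unoperated rat was followed over time, so time after surgery, age and the operation itself cannot be told apart.

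A miRNA is cut as a hairpin from a longer transcript, and either strand of its stem, the 5p or the 3p arm, can be loaded into Argonaute to repress mRNAs that pair with its seed, the bases 2 to 8. miR-140 and miR-455 are transcribed with genes of the chondrocyte programme that SOX9 drives, and mice without miR-140 have short bones and damaged joint cartilage. The calvaria itself ossifies mainly without a cartilage template. In plasma the cells that released a miRNA are not known, and fewer releasing cells and less RNA per cell cannot be told apart.

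The mature sequences are shown because the seeds decide which mRNAs an arm can pair with, and the hairpins because the ratio of their arms is a result below. They were taken from RefSeq with the assembly GRCr8, which held 3 of the 4 arms, with the seed in capitals:
rno-miR-140-3p: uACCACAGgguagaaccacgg
rno-miR-140-5p: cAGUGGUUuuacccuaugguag
rno-miR-455-3p: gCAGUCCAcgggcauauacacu

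The hairpin of miR-140 spans chr19:52375293-52375391 on the + strand, within Wwp2, which codes for a ubiquitin ligase. The hairpin of miR-455 spans chr5:81704834-81704911 on the + strand, within Col27a1, which codes for a fibrillar collagen of cartilage. In the hairpins, the capitals mark the mature arms listed above:
Mir140: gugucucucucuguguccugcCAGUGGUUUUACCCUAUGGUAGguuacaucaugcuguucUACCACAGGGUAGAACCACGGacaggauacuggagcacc
Mir455: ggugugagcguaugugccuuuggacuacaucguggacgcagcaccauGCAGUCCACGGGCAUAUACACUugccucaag

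The 3 seeds differ from each other, and none of the 693 mature rat miRNAs searched in RefSeq shared a seed with any of them (0 others for each seed). The 4 arms are therefore set side by side as separate molecules, and the counts do not separate length variants of one arm.

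The count table held between 393259 and 1586398 miRNA reads per sample, with a median of 796311. Levels are given as RPM, the reads of a miRNA relative to all miRNA reads of the sample, and so as a share of the miRNA pool. The week 8 libraries stood apart from all others in the extraction spike-in UniSp2. They had 91.1 to 144 UniSp2 reads per 1000 miRNA reads, against 23.3 to 60.4 at the other time points. Time and this difference between libraries cannot be told apart at week 8, so its values are given beside those at weeks 1 and 4. The levels at weeks 1 and 4 do not rest on the week 8 libraries. The main fits do, since they share normalization, filter and an estimate of the spread over all 48 samples. In the sentences below, a miRNA is called where the quasi-likelihood test of edgeR gave a false discovery rate (FDR) under 0.05 over all miRNAs tested. A background share, given beside a count, is the share of all tested miRNAs that met the same rule.

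All 4 arms were lower after surgery than before it, at each of the 3 weeks and in each of the 12 rats. At week 8 they were at 19.8% to 36.8% of the baseline level after normalization, and every week 8 sample lay below every baseline sample for all 4 arms. Together they took 10.1% ± 1.61 of the miRNA reads before surgery and 5.91% ± 0.906 at week 1 (SD, n = 12 rats). By week 4 this share was 5.39% ± 1.203, and by week 8 it was 3.34% ± 0.634 (SD, n = 12 rats). Nearly all of this share was miR-140-3p.

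miR-140-3p was among the most abundant miRNAs of rat plasma, rank 4 over all samples after miR-451-5p, miR-16-5p and miR-486. At baseline its level ran from 61288 to 113974 RPM with a median of 99573. At week 1 it ran from 41208 to 75472 RPM (median 55006) and at week 4 from 35248 to 75864 RPM (median 50359). At week 8 it ran from 25186 to 45628 RPM (median 29887), all below the lowest baseline sample, whereas 9 of the 12 samples at week 1 and 10 at week 4 did so. Its rank among the 645 miRNAs by mean RPM went from 2 at baseline to 4, 5 and 8 at weeks 1, 4 and 8. The log2 change against baseline was -0.67 (SE 0.11, FDR = 5.35e-06) at week 1, -0.79 (SE 0.11, FDR = 2.61e-07) at week 4 and -1.54 (SE 0.11, FDR = 9.94e-17) at week 8.

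miR-140-5p, the other arm of the same hairpin, was far scarcer. It ran from 339 to 880 RPM at baseline (median 490.2), from 191 to 488 RPM at week 1 (median 246) and from 141 to 450.8 RPM at week 4 (median 272). At week 8 it ran from 55.9 to 156 RPM (median 102). These week 8 levels rest on 22 to 154 reads per sample, and counting alone would give them a coefficient of variation of about 12.8%, against 30.6% between rats. The log2 change against baseline was -0.91 (SE 0.18, FDR = 0.000177) at week 1, -0.84 (SE 0.18, FDR = 0.00113) at week 4 and -2.34 (SE 0.20, FDR = 7.68e-15) at week 8.

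miR-455-3p ran from 2465 to 5672 RPM at baseline (median 4477) and from 1524 to 3672 RPM at week 1 (median 2212). It ran from 1062 to 3625 RPM at week 4 (median 1522) and from 1089 to 2247 RPM at week 8 (median 1441). Its median at week 4 lay near that at week 8, and its lowest sample was a week 4 sample. The log2 change against baseline was -0.79 (SE 0.16, FDR = 0.000129) at week 1, -1.25 (SE 0.16, FDR = 1.42e-08) at week 4 and -1.44 (SE 0.16, FDR = 6.1e-11) at week 8.

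miR-455-5p ran from 531 to 1318 RPM at baseline (median 976), from 241 to 532 RPM at week 1 (median 392) and from 247 to 589 RPM at week 4 (median 314). At week 8 it ran from 106 to 291 RPM (median 166). Already at week 1, 11 of the 12 samples lay below all baseline samples. The log2 change against baseline was -1.15 (SE 0.16, FDR = 1.87e-07) at week 1, -1.32 (SE 0.16, FDR = 9.98e-09) at week 4 and -2.31 (SE 0.17, FDR = 9.94e-17) at week 8.

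**Figure D1:**
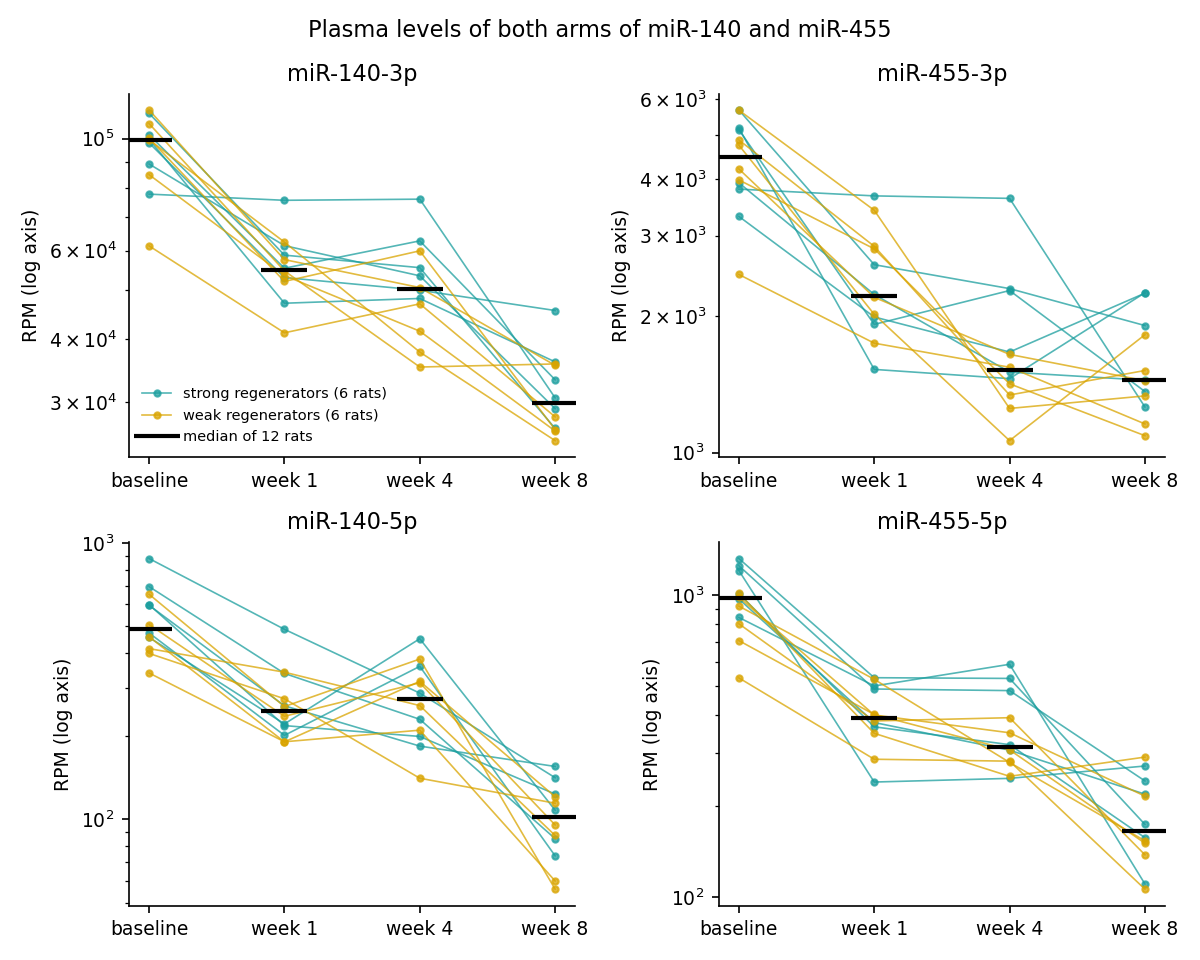
Plasma level (RPM, log axis) of each arm at baseline and at weeks 1, 4 and 8, with one line per rat, strong regenerators in turquoise and weak regenerators in yellow, and a black bar at the median of the 12 rats. For each arm, every rat is highest at baseline, and the week 8 samples do not overlap the baseline samples.

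A fall in every rat was uncommon among other plasma miRNAs at the early weeks and less so at week 8. Among the 310 miRNAs with a mean of at least 10 RPM, the 4 arms included, 3.87% were lower in 12 of 12 rats at week 1, 6.77% at week 4 and 20.6% at week 8. Complete separation from the baseline samples at week 8, found for the 4 arms, was found for 9.68% of the 310. By the FDR rule, the 4 arms were called lower at each week, where the background share called lower was 9.05% (232 miRNAs tested), 4.03% (645 tested) and 26.1% (620 tested) in that order. Ordered from the lowest change up among the 310, the arms took ranks 5 to 26 at week 1, ranks 4 to 23 at week 4 and ranks 4 to 43 at week 8. The median log2 change of the 4 arms was -0.85, -1.05 and -1.92 at weeks 1, 4 and 8, against -0.04, 0.07 and -0.12 over the 310.

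**Figure D2:**
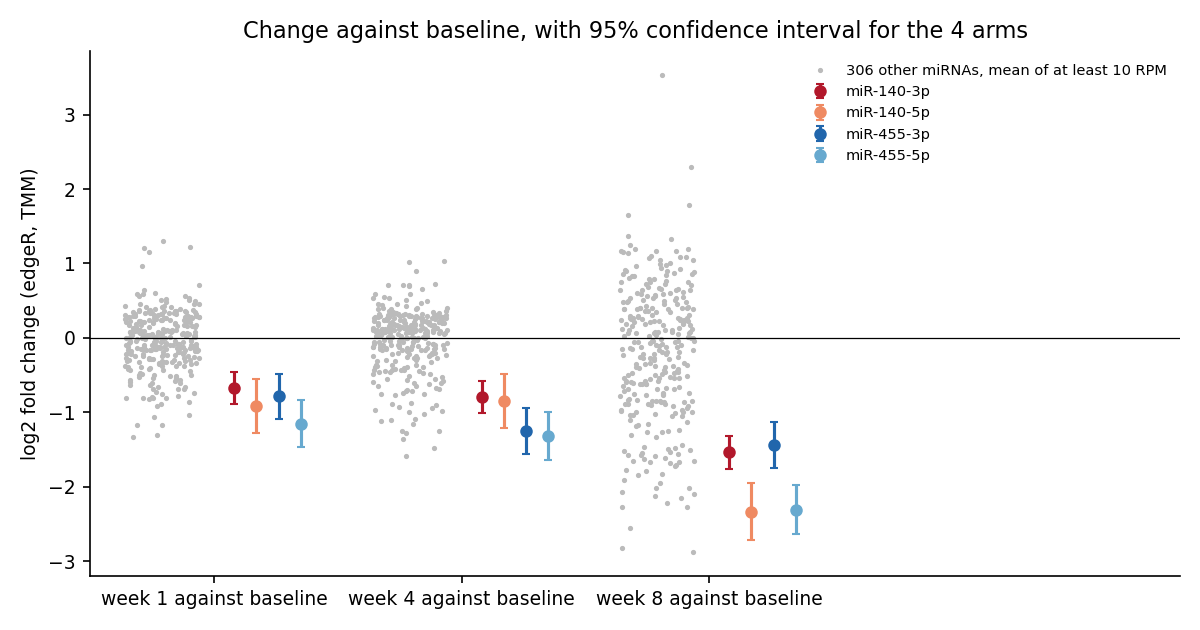
Log2 fold change against baseline (edgeR) at weeks 1, 4 and 8 for the 4 arms, as coloured points with 95% confidence intervals, beside 306 other miRNAs with a mean of at least 10 RPM in grey. All 4 intervals lie below 0 at each week, and the grey points spread more widely at week 8.

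These values are shares of a pool, so a larger share of other miRNAs lowers them. Scaled to UniSp2 reads in place of the miRNA total, the median change of the 310 abundant miRNAs became -0.32 at week 1, -0.29 at week 4 and -2.01 at week 8, in log2 units. The log2 changes of miR-140-3p, miR-140-5p, miR-455-3p and miR-455-5p became -0.96, -1.17, -1.08 and -1.44 in the week 1 samples, and -1.19, -1.23, -1.66 and -1.73 in the week 4 samples. In those of week 8 they became -3.45, -4.21, -3.34 and -4.22. This scaling moves all miRNAs of a sample alike, so the distance of the arms from the median stays nearly as it was by construction. The red blood cell miRNAs miR-451-5p, miR-144-3p, miR-144-5p and miR-486 moved the other way at week 1, where 4 of 4 were called higher beside a background of 12.5%. Higher calls at week 1 depended on the scaling, with 29 over all miRNAs, 7 with library size and 3 with UniSp2. At week 4, 0 of these 4 were called, when 26 miRNAs were called lower and 1 higher. At week 8, miR-451-5p and miR-144-5p were called higher, beside a background of 14.2%, and miR-144-3p lower, while miR-486 was not called (edgeR FDR = 0.200). Their summed share ran from 10.2% to 20.1% of reads at baseline (median 15.8%), from 12.002% to 28.8% at week 1 (median 19.7%), from 13.3% to 26.8% at week 4 (median 18.3%) and from 17.7% to 31.1% at week 8 (median 23.5%). The log2 ratio of miR-451 to miR-23a, a common measure of red cell lysis, had medians of 2.30, 2.74, 2.55 and 3.03 in the same order. The part of these shares in the fall of the 4 arms was not tested.

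Between weeks 1 and 4 no change of an arm passed the test, and between weeks 4 and 8 the arms differed. None of the 4 arms was called at week 4 against week 1 by edgeR, DESeq2 or limma-voom, and the background share called by edgeR was 0%. Among the 645 miRNAs, 79 passed the unadjusted threshold of 0.05 in this edgeR test. miR-455-3p came nearest, with a log2 change of -0.46 (SE 0.16, edgeR FDR = 0.309) and a lower level in 11 of 12 rats. The other 3 arms had changes of -0.12, 0.07 and -0.17 for miR-140-3p, miR-140-5p and miR-455-5p, with 95% intervals from -0.33 to 0.10, from -0.29 to 0.43 and from -0.48 to 0.15.

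At week 8 against week 4, 3 of the 4 arms were called lower, beside a background of 25.8%. miR-140-5p fell by 1.49 (SE 0.19, edgeR FDR = 5.6e-09), and all 12 rats had a lower level, as 14.2% of the 310 abundant miRNAs did. miR-455-5p fell by 0.99 (SE 0.16, FDR = 1.58e-06) and was lower in 10 rats, and miR-140-3p fell by 0.74 (SE 0.11, FDR = 1.87e-07) and was lower in 11. miR-455-3p differed by -0.19 (SE 0.16, FDR = 0.326), was lower in 7 of 12 rats, and had a 95% interval from -0.50 to 0.11. Relative to baseline, both 5p arms were thus lower at week 8 than their 3p partners. Each arm was highest at baseline in 12 of 12 rats, whereas week 8 was the lowest time point in 12 rats for miR-140-5p, 11 for miR-140-3p, 10 for miR-455-5p and 7 for miR-455-3p. This order was counted for the 4 arms alone, so how common it is among other miRNAs is not known. Of the 310 abundant miRNAs, 20.6% were lower at week 8 than at baseline in all 12 rats.

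Single rats took other courses between baseline and week 8. In rat 25, a weak regenerator, miR-455-3p was at 1062 RPM at week 4 and 1817 RPM at week 8, miR-455-5p at 251 and 291 RPM, and miR-140-3p at 35248 and 35748 RPM, so that week 8 was above week 4 for these 3 arms. In rat 21, a strong regenerator, miR-140-3p was at 77627 RPM at baseline, 75472 RPM at week 1 and 75864 RPM at week 4 before it reached 30623 RPM at week 8. Its miR-455-3p took the same course, with 3799, 3672, 3625 and 1260 RPM. Its miR-140-5p did not stay level, with 473, 201, 358 and 73.9 RPM, and nor did its miR-455-5p, with 842, 499.9, 589 and 111 RPM. Rat 21 gave the highest week 1 and week 4 sample of both 3p arms. Both rats were picked out after their values were seen.

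The ratio of the arms compares 2 counts of the same library and does not depend on how the library is scaled. Hairpin cutting and ligation into a library can favour one arm, so the ratio is read here for its change and not for its size. This reading takes the favour in ligation to be alike at all weeks, which was not tested. A change of the ratio at week 8 cannot be told apart from the difference of the week 8 libraries. The 3p arm of miR-140 outnumbered its 5p arm by a median of 178 at baseline, with a range from 128 to 269, and by medians of 220, 215 and 305 at weeks 1, 4 and 8. The 3p arm of miR-455 outnumbered its 5p arm by a median of 4.59 at baseline, with a range from 3.41 to 6.17, and by medians of 6.08, 4.66 and 8.46 at weeks 1, 4 and 8. In read counts, the 3p arm of both hairpins thus outnumbered the 5p arm in all samples, with the highest medians at week 8.

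At week 8 the log2 ratio of 3p to 5p was 0.82 ± 0.634 above baseline for miR-140 and 0.90 ± 0.401 above it for miR-455 (SD of the change, n = 12 rats), higher in 12 of 12 rats in both cases. The exact paired permutation test over the 12 rats gave p = 0.000488 for each, the smallest it can give, and 0.00133 after adjustment over the 76 hairpins with both arms at a mean of at least 10 RPM. This was common among the hairpins at week 8. The same test called 68.4% of the 76 hairpins, 38.2% towards the 3p arm, and the median size of the change was 0.89 on the log2 scale, so miR-140 and miR-455 ranked 41 and 37 by size. At week 1 the ratio of miR-455 had risen by 0.36 ± 0.255 in 11 of 12 rats (exact p = 0.00146, adjusted p = 0.0696 over the 76 hairpins), and that of miR-140 was 0.25 ± 0.491 above baseline (exact p = 0.0986), where 0% of the hairpins were called by the adjusted test. At week 4 both ratios were near baseline, with mean changes of 0.08 and 0.06 for miR-140 and miR-455 (exact p = 0.621 and 0.604) and again 0% of the hairpins called.

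**Figure D3:**
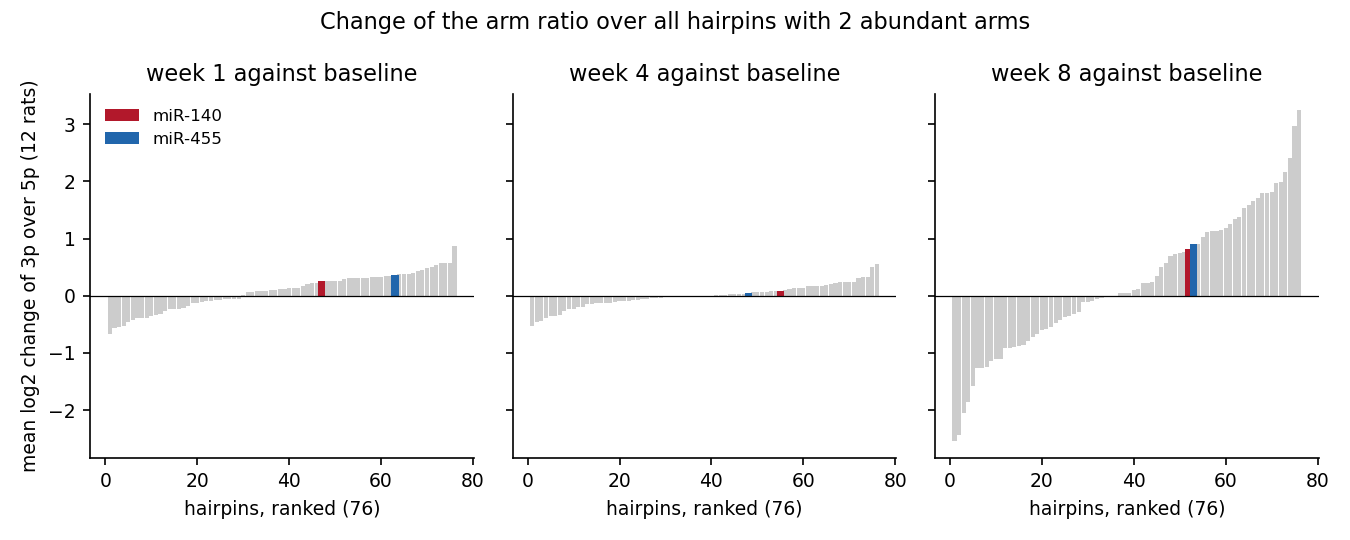
Mean log2 change of the ratio of 3p to 5p counts against baseline over 12 rats, ranked over the 76 hairpins with 2 abundant arms, at weeks 1, 4 and 8, with miR-140 in red and miR-455 in blue. At week 8, where changes of both directions are wide, the 2 hairpins sit at 0.82 and 0.90, with 24 and 23 hairpins above them.

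The hairpins did not fall in the same steps. At week 4, the level of miR-455-3p relative to miR-140-3p was below baseline in 12 of 12 rats, by a mean of 0.47 ± 0.277 on the log2 scale (exact paired permutation test, p = 0.000488, the smallest possible). The 5p arms gave a similar value, with miR-455-5p relative to miR-140-5p lower by 0.45 ± 0.471 in 10 of 12 rats (exact p = 0.00684). At week 8 the same ratios differed from baseline by 0.10 ± 0.229 (exact p = 0.147) for the 3p arms and by 0.02 ± 0.576 (exact p = 0.906) for the 5p arms. At week 1 they differed by -0.12 ± 0.277 (exact p = 0.169) and -0.23 ± 0.497 (exact p = 0.135). These 6 tests were added after the levels were seen, without adjustment over other pairs of hairpins.

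The question of the study was whether circulating miRNAs separate rats that heal well from rats that heal poorly. Over all 4 time points, the 4 arms in strong regenerators were at 108% to 116% of their level in weak regenerators after normalization, and none was called. The log2 difference was 0.11 for miR-140-3p (95% interval -0.04 to 0.26, edgeR FDR = 0.708), 0.22 for miR-140-5p (-0.04 to 0.47, FDR = 0.591), 0.16 for miR-455-3p (-0.05 to 0.37, FDR = 0.693) and 0.22 for miR-455-5p (-0.00235 to 0.44, FDR = 0.526). These intervals count the 4 samples of a rat as independent and do not give the spread between rats. DESeq2 and limma-voom also called 0 of the 4, 64 of the 645 miRNAs had an unadjusted p under 0.05 in edgeR, and the background share called was 0%. The paper itself reports 2 miRNAs in this comparison at an FDR under 0.05, miR-133a-3p higher and miR-375-3p lower in strong regenerators. In the fit used here, miR-133a-3p had a log2 difference of 0.95 (SE 0.26, edgeR FDR = 0.103). Why the 2 analyses differ was not tested. At single time points the levels overlapped for every arm.

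With levels given as shares of the miRNA reads, the widest gap was that of miR-455-3p at week 4. It then ran from 1454 to 3625 RPM in strong regenerators (median 1969) and from 1062 to 1644 RPM in weak regenerators (median 1378), so that 4 of the 6 strong samples lay above all weak samples. The log2 difference was 0.58 (SE 0.21, edgeR FDR = 0.851 over 645 miRNAs, of which 0% were called and 25 passed the unadjusted threshold). For miR-140-3p, strong regenerators ran from 48203 to 75864 RPM (median 54474) and weak regenerators from 35248 to 59921 RPM (median 44278), a log2 difference of 0.31 (SE 0.16, FDR = 0.851). At baseline, miR-455-5p ran from 842 to 1318 RPM in strong regenerators (median 1105) and from 531 to 1011 RPM in weak regenerators (median 860.2), a log2 difference of 0.42 (SE 0.22, FDR = 0.703). Exact permutation tests of log2(RPM + 1) over the 12 rats gave an unadjusted p of 0.0216, 0.0476 and 0.0325 for these 3 differences. For miR-140-3p over the mean of the 4 time points, the same test gave a log2 difference of 0.17 (exact permutation p = 0.0325, unadjusted). Per UniSp2 read this became 0.07 (exact permutation p = 0.411). Over the 20 such tests as RPM, 4 arms at 4 time points and over their mean, the smallest adjusted p was 0.216. These gaps depended on the scaling. Per UniSp2 read, the log2 difference at week 4 was 0.27 for miR-455-3p (exact permutation p = 0.121) and 0.05 for miR-140-3p (exact permutation p = 0.662), while at baseline it was 0.52 for miR-455-5p (exact permutation p = 0.0281) and 0.50 for miR-140-5p (exact permutation p = 0.00649, against 0.41 and p = 0.0671 as RPM), none of them adjusted.

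The fall after surgery was present in both groups. In strong regenerators, all 4 arms were called lower at each week, beside a background called lower of 4.61%, 3.41% and 22.6% at weeks 1, 4 and 8. Those shares were taken over 282, 645 and 532 tested miRNAs, and the shares for weak regenerators over 645, 357 and 520. The background shares are therefore not directly comparable between groups or weeks. In weak regenerators, 2 arms were called lower at week 1, 3 at week 4 and 4 at week 8, beside a background of 1.09%, 4.2% and 20%. The arms not called there were miR-140-5p at week 1 (log2 change -0.79, SE 0.26, edgeR FDR = 0.138) and at week 4 (-0.64, SE 0.26, FDR = 0.209), and miR-455-3p at week 1 (-0.67, SE 0.21, FDR = 0.121). The strong group at week 1 rested in part on rat 23: without it, the FDR of miR-140-3p, miR-140-5p and miR-455-3p became 0.0904, 0.0575 and 0.0841, with log2 changes of -0.56, -0.94 and -0.72. A test of the difference itself called none of the 4 arms at any week (edgeR, with 27, 38 and 26 of 645 miRNAs at an unadjusted p under 0.05 at weeks 1, 4 and 8 and a background of 0%). For miR-455-3p at week 4 the difference was 0.52 (SE 0.30, FDR = 0.705), with a change of -1.02 in strong and -1.54 in weak regenerators, and it became 0.08 with UniSp2 scaling (FDR = 0.9998). For miR-140-5p at week 4 it was -0.38 (SE 0.37, FDR = 0.930), and -0.77 with UniSp2 scaling (FDR = 0.484).

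The ratio of the arms differed between the groups for miR-455 before surgery. The 3p arm outnumbered the 5p arm by 3.41 to 4.54 in the 6 strong regenerators (median 4.09) and by 4.64 to 6.17 in the 6 weak regenerators (median 5.10), so the groups did not overlap. The mean log2 ratio was 2.03 ± 0.159 in strong and 2.38 ± 0.160 in weak regenerators, a difference of -0.35 (SD, n = 6; exact permutation test, p = 0.00216, the smallest that 6 against 6 allows). Of the 76 hairpins, miR-455 was the single one without overlap at baseline, a background share of 1.32%, while 10.5% had an unadjusted p under 0.05 and 0% were called after adjustment, with an adjusted exact p = 0.165 for miR-455. Counting alone would give the log2 ratio of a baseline sample an SD of about 0.0536, smaller than the SD between rats.

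After surgery the groups overlapped. At week 4 the ratio of miR-455 was 2.37 ± 0.204 on the log2 scale in strong and 2.15 ± 0.174 in weak regenerators (exact permutation p = 0.0736), the opposite order to that before surgery. From baseline to week 4 it changed by 0.34 in strong and by -0.23 in weak regenerators, a difference of 0.57 (exact permutation test, p = 0.00649, adjusted p = 0.123 over the 76 hairpins, of which 13.2% had an unadjusted p under 0.05 and 0% were called). From baseline to week 8 the ratio of miR-455 rose by 1.15 in strong and by 0.66 in weak regenerators, a difference of 0.49 (exact permutation p = 0.0260, adjusted p = 0.395 over the 76 hairpins, of which 6.58% had an unadjusted p under 0.05). At week 1 the difference in its change was 0.15 (exact permutation p = 0.314). Each of these differences in the change holds the baseline difference of -0.35 by construction. For miR-140 the difference in the change was 0.32, 0.64 and 0.16 at weeks 1, 4 and 8 (exact permutation p = 0.288, 0.0390 and 0.643, and adjusted p = 0.329 over the 76 hairpins at week 4). Its baseline ratio was 7.32 ± 0.277 in strong and 7.68 ± 0.253 in weak regenerators, with overlap (exact permutation p = 0.0433, adjusted p = 0.411 over the 76 hairpins). The mean over the 4 time points did not separate the groups for either hairpin, with differences of -0.08 for miR-140 and -0.05 for miR-455 (exact permutation p = 0.556 and 0.604).

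**Figure D4:**
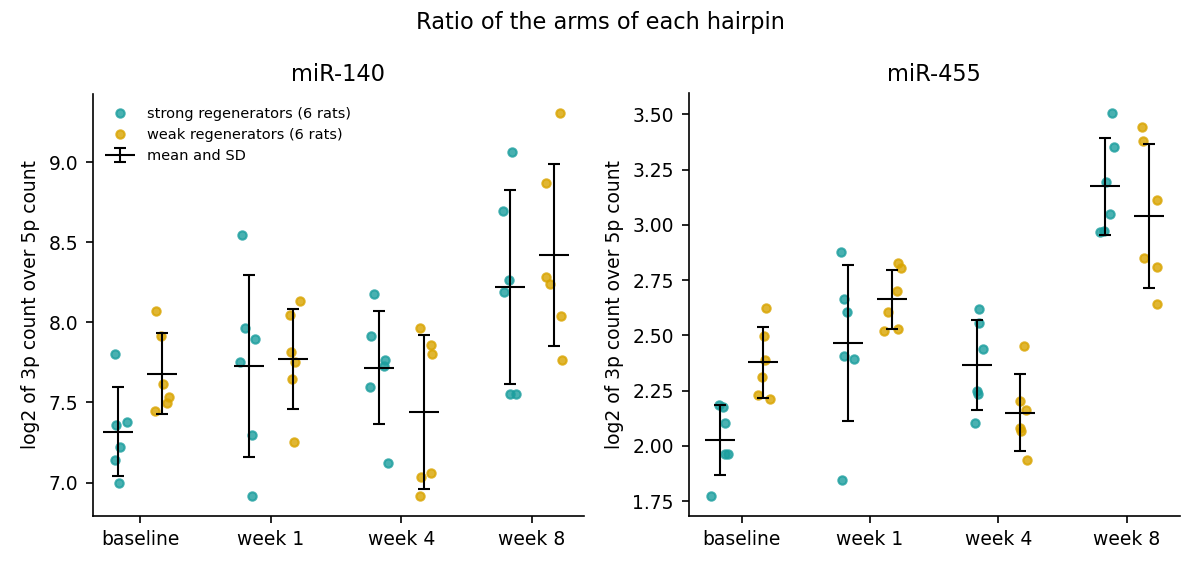
Log2 ratio of 3p to 5p counts of miR-140 and miR-455 at each time point, with one point per rat, strong regenerators in turquoise and weak regenerators in yellow, and the mean and SD of 6 rats in black. Before surgery the miR-455 ratio of the 6 strong regenerators ends below that of the 6 weak regenerators, and at week 8 both hairpins are higher in both groups.

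Rats that were high in one arm tended to be high in another, and how far this rested on few animals depended on the scaling. Over the 12 rats, with each rat given by its mean log2(RPM + 1) over the 4 time points, Pearson's r between miR-140-3p and miR-455-3p was 0.80 (permutation p = 0.00177, adjusted p = 0.00552 over 6 pairs) and Spearman's rho 0.64 (permutation p = 0.0305, adjusted p = 0.0610). Between the 2 arms of miR-455, r was 0.81 (permutation p = 0.00276, adjusted p = 0.00552) and rho 0.78 (permutation p = 0.00324, adjusted p = 0.0194). Between the 2 arms of miR-140, r was 0.54 (permutation p = 0.0752, adjusted p = 0.0899) and rho 0.48 (permutation p = 0.121). Without the 2 rats farthest from the median, r became 0.55, 0.43 and 0.17 for these 3 pairs (permutation p = 0.103, 0.199 and 0.669). For miR-140-3p with miR-455-5p, r was 0.79 (permutation p = 0.00243, adjusted p = 0.00552) and rho 0.70 (permutation p = 0.0146, adjusted p = 0.0438), and r became 0.45 without 2 rats (permutation p = 0.198). For miR-140-5p, r was 0.77 with miR-455-5p (permutation p = 0.00991, adjusted p = 0.0149; rho 0.55, permutation p = 0.0697) and 0.50 with miR-455-3p (permutation p = 0.0899; rho 0.49, permutation p = 0.109), and these became 0.24 and 0.18 without 2 rats (permutation p = 0.461 and 0.625). As RPM, none of the 6 relations passed the threshold without 2 rats. On TMM-scaled counts (CPM) in place of RPM, r was 0.70 between the arms of miR-140 (permutation p = 0.0105) and 0.62 between miR-140-5p and miR-455-3p (permutation p = 0.0286), both then past the threshold, and 4 of the 6 relations passed it without 2 rats. Those were miR-140-3p with miR-140-5p, miR-455-3p and miR-455-5p (r = 0.65, 0.83 and 0.80, permutation p = 0.0352, 0.00402 and 0.00516) and the arms of miR-455 (r = 0.69, permutation p = 0.0225).

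Sample by sample, the 3p arms of the 2 hairpins kept closer company than the 2 arms of miR-140 did. Over the 48 samples after the mean of each week was subtracted, r was 0.83 between miR-140-3p and miR-455-3p, 0.80 between the arms of miR-455 and 0.26 between the arms of miR-140. These values describe samples that share rats and libraries, and the low counts of miR-140-5p add counting error to its pairs.

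**Figure D5:**
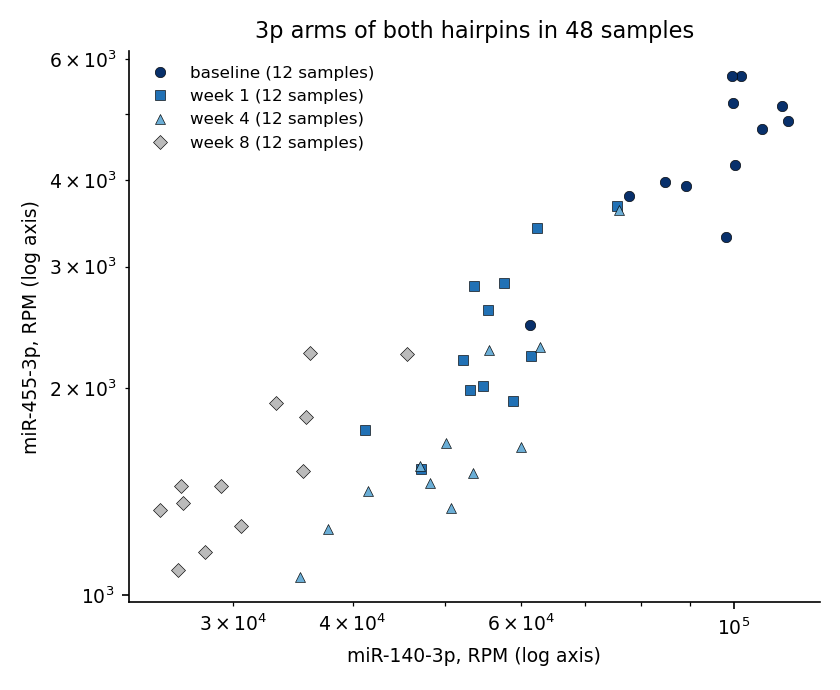
Level of miR-455-3p against miR-140-3p (RPM, log axes) in 48 samples, 12 at each time point. The baseline samples lie at the upper right and the week 8 samples at the lower left, and the mean log2 ratio of miR-455-3p to miR-140-3p is lowest at week 4, with -4.92 against -4.45 at baseline.

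Among the other 306 miRNAs with a mean of at least 10 RPM, most of those closest to the mean of the 4 arms came from one cluster. Outside it were miR-149-5p and, after the mean of each week was subtracted, miR-92b-3p. Over the 48 samples, Pearson's r of log2(RPM + 1) was 0.94 for miR-322-3p, 0.93 for miR-503-3p, 0.93 for miR-351-3p, 0.93 for miR-503-5p, 0.92 for miR-149-5p and 0.89 for miR-322-5p, against a median of 0.15 over the 306. miR-322, miR-351 and miR-503 are encoded together on the X chromosome. After the mean of each week was subtracted, the 6 most alike were miR-503-3p (0.66), miR-149-5p (0.65), miR-322-3p (0.63), miR-92b-3p (0.61), miR-351-3p (0.60) and miR-503-5p (0.58), with a median of 0.08 over the 306. The samples share rats and libraries, so these correlations are descriptions.

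Some of the other miRNAs studied in chondrocytes were also lower after surgery. Of a list of 16, all present in the table, 3 of the 13 tested at week 1 were called lower, beside a background of 9.05%. All 16 were tested later, and 2 were called lower at week 4, beside 4.03%, and 6 at week 8, beside 26.1%, when 2 were called higher, beside 14.2%. The list's median log2 change was -0.07, -0.33 and -0.51 at weeks 1, 4 and 8, against -0.04, 0.07 and -0.12 over the 310 abundant miRNAs. miR-149-5p was the list member with calls at all 3 weeks, with log2 changes of -0.80, -0.93 and -1.94 (SE 0.14, 0.14 and 0.15; edgeR FDR = 1.64e-05, 1.63e-06 and 2.89e-16). miR-214-3p, which comes from the transcript that also holds miR-199a, fell by 0.55 at week 1 (SE 0.21, FDR = 0.0490) and by 2.07 at week 8 (SE 0.22, FDR = 1.44e-11), with -0.44 at week 4 (SE 0.21, FDR = 0.242). Of its neighbours, miR-199a-5p was not called, with -0.40, -0.76 and -0.16 (FDR = 0.278, 0.0924 and 0.647). The other arm, miR-199a-3p, named here after its values were seen, fell by 0.87 at week 1 (SE 0.31, FDR = 0.0445) and by 2.83 at week 8 (SE 0.33, FDR = 4.01e-10), with -0.40 at week 4 (SE 0.31, FDR = 0.519). miR-145-5p, which represses SOX9 in chondrocytes, was called higher at week 8 with 0.90 (SE 0.26, FDR = 0.00452), after 0.39 and -0.36 at weeks 1 and 4 (FDR = 0.306 and 0.477). The other member called higher at week 8 was miR-9a-5p, also named after its values were seen. It rose by 3.54 (SE 0.56, FDR = 6.96e-07), after 0.60 and 1.02 at weeks 1 and 4 (FDR = 0.476 and 0.340). None of the 16 was called between strong and weak regenerators by edgeR.

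Of the other tissue markers listed, 1 of 2 tested liver miRNAs was called higher at week 1 (miR-122-5p), beside a background of 12.5%, and 2 of 3, miR-122-5p and miR-192-5p, were called lower at week 8, beside 26.1%. Of the platelet and leukocyte miRNAs, 0 of 4 were called at weeks 1 and 4, with miR-150-5p lower and miR-142-3p higher at week 8, where 26.1% of all tested miRNAs were called lower and 14.2% higher. None of the 3 muscle miRNAs, of which 1 was tested at week 1, was called by edgeR at any week. The summed share of the platelet and leukocyte list had medians of 4.14%, 3.51%, 4.47% and 2.84% from baseline to week 8, that of the liver list 0.980%, 0.995%, 1.14% and 0.421%, and that of the muscle list 0.136%, 0.126%, 0.195% and 0.215%, and their part in the levels of the 4 arms was not tested.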

How the data were processed

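Plasma small RNA of 12 rats at 4 time points was sequenced by the authors with a single-adapter ligation protocol. The authors trimmed reads with cutadapt, mapped them with Bowtie, first to the genome and next to miRBase, and deposited raw counts per miRNA, not normalized, for 645 miRNAs and 3 spike-ins. The submitters' processing notes give cutadapt 3.3, Bowtie 1.3.0, FastQC 0.11.9 and MultiQC 1.10. The methods state a plasma input that differs from the labels, and the abstract names another strain. Baseline samples took their regeneration group from the later samples of their animal.

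The 4 arms and all lists were chosen with earlier results of these data known. The arms were named by rule in every comparison, as were the 6 miRNAs most like them over 48 samples before and after the week means were subtracted, and 4 members of the chondrocyte list. Counts were tested over the whole table with edgeR 4.0.16 (R 4.3.3), TMM normalization, the quasi-likelihood method of version 3, an independent filter on mean abundance and Benjamini-Hochberg adjustment at an FDR of 0.05, with the week, or the 8 combinations of week and group, as terms. The 4 samples of a rat were treated as independent. Arm ratios and levels were compared by exact permutation over rats, two-sided, with Python 3.11.15, numpy 2.4.6, scipy 1.17.1 and pandas 2.3.3, on log2(RPM + 1) with a pseudocount of 1 for levels and on counts without one for ratios. Arm ratios were adjusted over 76 hairpins in place of the planned adjustment over the tests of both hairpins alone. Correlations used 100000 permutations. The alternatives used DESeq2 1.42.0 and limma 3.58.1, among others, and plots matplotlib 3.10.9. The fits were tested on simulated data. No pair of libraries was identical. Depth was 393259 to 1586398 miRNA reads, and since reads are not shown to be separate molecules, counting errors cover counting only. Equal sample numbers mark one rat. Deviations of such samples from the group means had a mean correlation of 0.107, against -0.009 between rats, and a fit with a term for each rat, as a block, was tried as an alternative. The treatment of each rat was not a covariate.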

Additional observations from a re-analysis of the deposited data

Results flagged for a closer look

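The change of the miR-455 arm ratio from baseline to week 4 differed between the groups. The log2 ratio of miR-455-3p to miR-455-5p changed by 0.34 in strong and by -0.23 in weak regenerators, a difference of 0.57 (exact permutation test over 6 against 6 rats, p = 0.00649). It did not pass after adjustment over the 76 hairpins (adjusted p = 0.123), and with each rat left out in turn the difference ran from 0.50 to 0.66. The 6 strong and 6 weak regenerators were already apart in this ratio before surgery, by -0.35. At week 4 they differed by 0.22 (exact permutation p = 0.0736). By construction, the difference in the change is the week 4 difference less the baseline difference. It therefore holds the baseline difference and is not separate from it. No sample stood far from the others in any of the 48 sets of 6 samples tested for the levels and ratios of the 4 arms.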

How the results depend on the processing

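The direction and call of each arm against baseline, over both groups, held at weeks 1, 4 and 8 under all other scalings, filters and tools, with only the weeks compared, with the rat as a block and without each rat. With the rat as a replicate block, the log2 changes of miR-140-3p were -0.67, -0.79 and -1.53 at weeks 1, 4 and 8, and in the blocked fit 1 further call appeared, miR-455-3p at week 1 in weak regenerators (-0.66, FDR = 0.0397). Strong against weak, the rat entered as a random effect and changed no call of the 4 arms. Without each rat in turn, the change of the miR-140 arm ratio at week 1 ran from 0.17 to 0.34, with an exact p of 0.0459 without rat 25 and 0.0205 without rat 26 in place of 0.0986. In weak regenerators at week 1, miR-140-5p and miR-455-3p were called after scaling to library size (FDR = 0.0262 for both), after scaling to UniSp2 (0.0393 and 0.00803), by DESeq2 (0.0490 for both), without rat 17 (0.0496 and 0.0405) and without rat 29 (0.0433 and 0.0414). Leaving miR-140-3p out of the scaling, which was chosen after seeing the data, gave miR-455-3p there an FDR of 0.0498. miR-140-5p at week 4 in weak regenerators was called with library size (0.0489), and miR-455-3p at week 8 against week 4 with UniSp2 (-1.68, FDR = 2.86e-14). The causes were not tested.

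The number of miRNAs called at week 1 against baseline was 50, and 32 with library size, 25 without a filter and 24 to 47 without each rat. With UniSp2 it was 61 at week 4 in place of 27, 499 at week 8 in place of 250 and 468 at week 8 against week 4 in place of 213. The split into lower and higher calls at week 1 was 21 and 29, against 25 and 7 with library size and 59 and 3 with UniSp2. At week 8 it was 162 and 88, against 498 and 1 with UniSp2, and at week 8 against week 4 it was 137 and 76, against 112 and 106 with RLE and 467 and 1 with UniSp2. At week 4 against week 1, 0 were called, 1 with DESeq2 and 4 with the rat as a block. Strong against weak, 0 to 2 were called at the single weeks and over all time points without each rat, and 9 in place of 0 in the change at week 4 without rat 5. In strong regenerators, 28, 91 and 457 were called at weeks 1, 4 and 8 with UniSp2 in place of 18, 24 and 183, and 37 at week 4 without rat 5. In weak regenerators at week 1, 7 were called, against 13 with library size or the rat as a block, 16 with UniSp2, and 11 with DESeq2, limma-voom or the version 4 method of edgeR. In weak regenerators at week 8, 166 were called, against 434 with UniSp2 and 273 with limma-voom.

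The week 8 log2 ratio of miR-140 rests on 22 to 154 reads of miR-140-5p, with a counting SD of about 0.184 against 0.570 between rats. Unadjusted exact p-values between strong and weak regenerators in the levels of single arms and in both arm ratios crossed 0.05 when single rats were left out. For miR-455, the ratio at week 4 had p = 0.0368 without rat 2 and 0.0260 without rat 3 in place of 0.0736, its change at week 1 had p = 0.0411 without rat 2 in place of 0.314, and its change at week 8 had p between 0.0519 and 0.0584 without rat 6, 7, 16, 17, 21 or 25 in place of 0.0260 (exact permutation tests). The difference in the miR-455 ratio at baseline ran from -0.38 to -0.30 without each rat.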
